A study of Mus musculus with 18 samples.

Results

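The 10 genes described here belong to the NF-kB pathway or are inflammatory genes that it is known to switch on: Nfkbia, Nfkbie, Nfkb1, Nfkb2, Relb, Tnfaip3, Ccl2, Ccl7, Cxcl1 and Ptgs2. They were taken by symbol from a table of raw counts with 23420 gene rows, and all 10 were found and all 10 passed the filter on low counts. NIH-3T3 cells, an established line of mouse embryonic fibroblasts, were either unmodified (wild-type, WT) or carried a CRISPR/Cas9 knockout of Nfe2l1, the gene of the transcription factor Nrf1 (Nrf1-KO). Each line received the vehicle DMSO, for a time that the labels do not state, or 200 nM carfilzomib (CFZ), an irreversible inhibitor of the proteasome, for 6 h or 24 h. This gives 6 groups of 3 libraries, described as biological replicates. The knockout is a single line, so a difference between the lines cannot be told apart from a difference between cell isolates. All cells, DMSO controls included, were grown in DMEM with serum.

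NF-kB is a family of dimeric transcription factors built from RelA, RelB, c-Rel, p50 (from Nfkb1) and p52 (from Nfkb2). In resting cells IkB proteins hold the dimers in the cytoplasm, and an activating signal leads IkB kinase to mark IkB for destruction by the proteasome. The proteasome also trims the p100 precursor to p52, and several NF-kB targets, Nfkbia and Tnfaip3 among them, encode inhibitors that shut the pathway off again. In fibroblasts the pathway is known for chemokines that draw in monocytes and neutrophils.

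Levels are given as CPM, a gene's counts relative to the total of its library, scaled with the trimmed mean of M-values (TMM). Total counts per library ran from 8333148 to 23917081. The common coefficient of variation between replicates was 3.13%, and the smallest count behind any of the 10 genes was 14 reads, for Tnfaip3 in WT cells. Nfe2l1 was lower in every Nrf1-KO library than in every WT library of the same treatment, by 1.31 on the log2 scale in DMSO, 0.62 at 6 h and 1.47 at 24 h, and its transcript was still counted at 174 to 427 CPM in Nrf1-KO cells. All 8 fibroblast markers were counted in every group, but their summed level fell from between 26700 and 28300 CPM in WT DMSO to between 4580 and 4610 CPM at 24 h of CFZ, and from between 21300 and 25400 CPM to between 7200 and 7990 CPM in Nrf1-KO cells. The sum is mostly that of the collagen genes Col1a1 and Col1a2, and the 8 markers did not all fall: in Nrf1-KO cells at 24 h Vim was at 3451 CPM against 3398 CPM in DMSO (log2 0.02, adjusted p = 0.52 by edgeR) and Pdgfra was higher (log2 0.10, adjusted p = 0.029), while all 8 were lower in WT cells. The samples were bulk cultures of an established fibroblast line. Fewer cells with a transcript and less of it per cell cannot be told apart in such samples. CPM is a share of the library, so a change is relative to all other genes. The median log2 change of the 11762 genes tested lay between -0.02 and 0.03 in the 4 comparisons of CFZ with DMSO.

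Promoter sequence was on hand for 6 of the 10 genes, as windows from 250 bases before to 50 bases after each RefSeq transcription start (mouse build GRCm38.p6). These windows are shown to describe the genes. The genes were chosen as members or known targets of the pathway, so matches to an NF-kB motif in them are no independent result. A match to the kB consensus, the motif that NF-kB dimers bind, was found on either strand in 5 of the 6 genes: Nfkbia, Nfkbie, Nfkb2, Tnfaip3 and Cxcl1. Of all 27025 genes with such windows, 5.14% held a match. Nfkb2 has 3 windows and Tnfaip3 has 2, which gives these genes more bases in which a match could lie. The 250 bases before the Nfkbia start, at chr12:55492648-55492897 on the minus strand, overlap no annotated exon and carry 1 match, 20 to 29 bases before the start. The 246 bases before Cxcl1, at chr5:90890995-90891240 on the plus strand, overlap no annotated exon either, and hold 2 overlapping matches, 1 on each strand. Capitals mark the kB matches.
Nfkbia: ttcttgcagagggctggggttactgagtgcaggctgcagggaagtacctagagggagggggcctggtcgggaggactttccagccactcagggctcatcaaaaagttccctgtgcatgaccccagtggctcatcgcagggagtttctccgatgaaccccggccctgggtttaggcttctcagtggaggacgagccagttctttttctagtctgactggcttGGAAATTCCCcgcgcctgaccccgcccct
Cxcl1: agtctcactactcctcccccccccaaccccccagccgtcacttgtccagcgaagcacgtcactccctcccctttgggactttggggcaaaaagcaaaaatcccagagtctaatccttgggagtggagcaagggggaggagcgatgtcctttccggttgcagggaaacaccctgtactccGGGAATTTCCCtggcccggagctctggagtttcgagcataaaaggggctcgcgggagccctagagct

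Matches in other genes are given as 30 bases each, again with the match in capitals, for comparison with those of Nfkbia and Cxcl1. Of Nfkb2 only the matches just before its first start are printed, and its later windows hold further ones. The printed stretches lie at chr10:19015516-19015545 and chr10:19015403-19015432 (Tnfaip3, minus strand), chr17:45555584-45555613 (Nfkbie, plus strand), chr19:46304688-46304717 and chr19:46304716-46304745 (Nfkb2, plus strand). The first Tnfaip3 stretch and that of Nfkbie overlap no annotated exon, and the others overlap annotated exons.
Tnfaip3, first: gactcacgcgGGGACACCCCggggcgggac
Tnfaip3, second: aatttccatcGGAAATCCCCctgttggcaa
Nfkbie: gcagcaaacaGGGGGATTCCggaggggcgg
Nfkb2, first: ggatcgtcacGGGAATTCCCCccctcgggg
Nfkb2, second: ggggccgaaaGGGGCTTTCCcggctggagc

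The Ptgs2 window held no kB match, but bases further upstream were not searched. Its start region held 1 match to TGACGT, the core of the cyclic AMP response element, 12 to 17 bases after the start at chr1:150100031-150100060 on the plus strand, which overlaps 1 annotated exon. TGACGT was also found in the windows of Cxcl1 and Tnfaip3, and in 8.37% of all genes. The AP-1 motif TGACTCA was found in the windows of Nfkbie and Tnfaip3 (5.95% of all genes). TGACNNNGC, the core of the antioxidant response element to which Nrf1 binds, was found in the Nfkbia window alone of the 6 genes (14% of all genes). Both strands were searched for each motif. A match is a string of letters, and binding was not measured.
Ptgs2: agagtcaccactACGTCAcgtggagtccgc

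At 6 h of CFZ all 10 genes were higher than in DMSO in WT cells (edgeR's quasi-likelihood test, Benjamini-Hochberg adjusted p under 0.05), against 35.6% of all genes tested. Of the 10, 9 were higher by at least 2-fold, against 3.98% of all genes. In Nrf1-KO cells 9 of the 10 were higher, against 34.5% of all genes, and the same 9 passed 2-fold, against 3.3%. The exception in both lines was Nfkb1. The median log2 change of the 10 genes was 2.52 in WT and 2.57 in Nrf1-KO cells. Ccl2 ranked 3 of 11762 genes by log2 change in WT cells and 2 in Nrf1-KO cells. The 10 genes were chosen with earlier results of these data known, so their excess over all genes is no independent result.

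**Figure D1:**
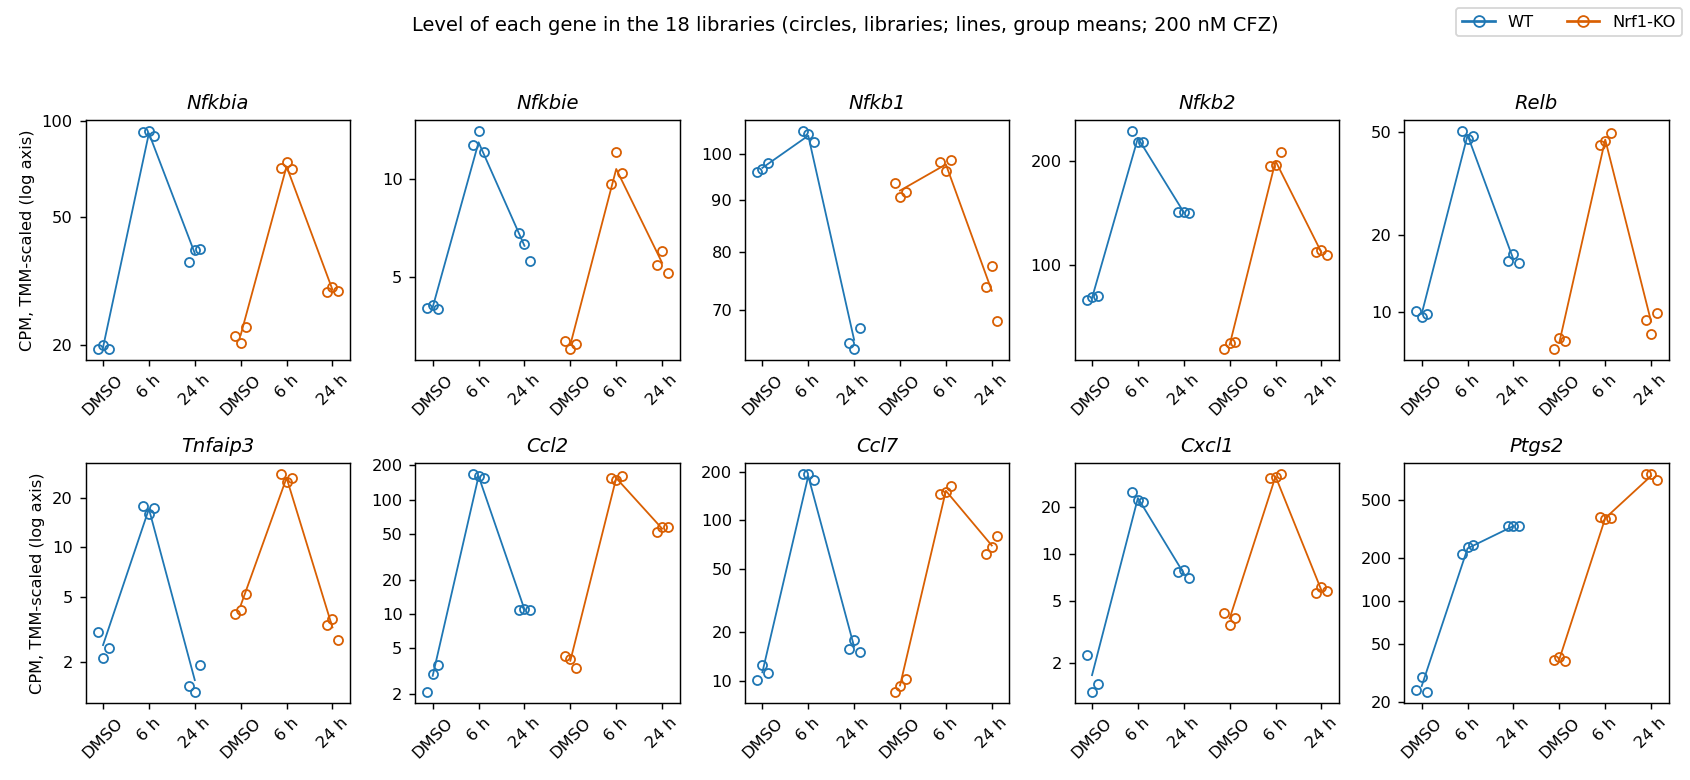
Level of each of the 10 genes (vertical log axis, TMM-scaled CPM, a separate range for each gene) in the 6 groups. Circles are single libraries, 3 per group, and lines join group means. In both lines 9 of the 10 genes were highest at 6 h and Ptgs2 was highest at 24 h. The rise of Nfkb1 at 6 h turns negative when only library size is used for scaling.

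Among the inhibitors, Nfkbia encodes IkB-alpha, the main IkB of the classical pathway. Its gene lies at chr12:55489410-55492647 on the minus strand (GRCm38). In WT cells Nfkbia stood at 19.4, 19.96 and 19.4 CPM in DMSO, 92.3, 93.3 and 89.6 CPM at 6 h, and 36.3, 39.6 and 39.9 CPM at 24 h. In Nrf1-KO cells it stood at 21.3, 20.2 and 22.7 CPM in DMSO, 71.2, 74.5 and 71.0 CPM at 6 h, and 29.3, 30.4 and 29.5 CPM at 24 h. No treated library overlapped the DMSO libraries of its line, and under CFZ the Nrf1-KO libraries were the lower ones at both times, with no overlap between the lines. Nfkbia rose 4.68-fold at 6 h and 1.98-fold at 24 h in WT cells, and 3.35-fold and 1.38-fold in Nrf1-KO cells. The response was smaller in Nrf1-KO cells by a log2 difference of -0.48 ± 0.07 (SE) at 6 h (edgeR, adjusted p = 2.7e-06) and -0.53 ± 0.08 at 24 h (edgeR, adjusted p = 1e-06).

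Nfkbie encodes IkB-epsilon, which also retains NF-kB dimers in the cytoplasm. Its gene lies at chr17:45555703-45563169 on the plus strand. Its mean level was 4.02 ± 0.05 (SD, n = 3) CPM in WT DMSO, 13.02 ± 1.02 CPM at 6 h and 6.23 ± 0.62 CPM at 24 h. In Nrf1-KO cells the means were 3.08 ± 0.08, 10.8 ± 1.29 and 5.52 ± 0.44 CPM. Treated and DMSO libraries did not overlap in either line. The 6 h increase was 3.24-fold in WT and 3.5-fold in Nrf1-KO cells, and the difference in response was not past the threshold at 6 h (log2 0.11, 95% interval -0.23 to 0.46) or at 24 h (log2 0.24, interval -0.14 to 0.61).

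Tnfaip3 encodes A20, a ubiquitin-editing enzyme that ends signalling upstream of IkB kinase. The gene lies at chr10:19000910-19015657 on the minus strand. In WT cells its level was 3.04, 2.13 and 2.45 CPM in DMSO, 17.97, 16.1 and 17.5 CPM at 6 h, and 1.42, 1.32 and 1.92 CPM at 24 h. In Nrf1-KO cells it was 3.94, 4.14 and 5.21 CPM in DMSO, 27.96, 25.0 and 26.6 CPM at 6 h, and 3.38, 3.66 and 2.73 CPM at 24 h. Each Nrf1-KO library exceeded each WT library of the same treatment, and at 24 h both lines lay below their own DMSO libraries. The rise at 6 h was 6.66-fold in WT and 5.81-fold in Nrf1-KO cells. At 24 h Tnfaip3 was 1.63-fold below DMSO in WT cells (edgeR, adjusted p = 0.0039) and 1.39-fold below in Nrf1-KO cells (edgeR, adjusted p = 0.0048), and the latter call was lost without DMSO replicate 3 of Nrf1-KO (log2 -0.31, adjusted p = 0.101). The response did not differ between the lines past the threshold (log2 -0.20, interval -0.56 to 0.17 at 6 h, and 0.23, interval -0.32 to 0.78 at 24 h).

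Among the subunits, Nfkb1 encodes p105, the precursor of p50, at chr3:135584655-135691547 on the minus strand. In WT cells it was counted at 96.0, 96.6 and 98.0 CPM in DMSO, 105, 105 and 103 CPM at 6 h, and 65.0, 64.2 and 67.2 CPM at 24 h. In Nrf1-KO cells it was counted at 93.6, 90.6 and 91.7 CPM in DMSO, 98.2, 96.1 and 98.6 CPM at 6 h, and 73.8, 77.4 and 68.4 CPM at 24 h. The 6 h libraries lay just above, and the 24 h libraries below, the DMSO libraries in both lines. The 6 h change was 1.08-fold in WT cells (edgeR, adjusted p = 0.014), and its log2 value went from 0.11 to -0.002 under upper-quartile scaling and -0.025 when scaled by library size. It was 1.06-fold in Nrf1-KO cells (edgeR, adjusted p = 0.054), and turned to a log2 value of -0.027 with library size alone. At 24 h Nfkb1 was 1.48-fold lower than in DMSO in WT and 1.25-fold lower in Nrf1-KO cells, a difference in response of log2 0.24 (edgeR, adjusted p = 0.00059).

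Nfkb2, which encodes p100, and Relb, which encodes its usual partner RelB, form the dimer of the alternative pathway. Nfkb2 lies at chr19:46304320-46312385 on the plus strand, and 18.1% of its exonic bases are overlapped by genes on the opposite strand, so its count could include reads of these where strand was not used. Its levels in WT cells were 79.2, 80.7 and 81.5 CPM in DMSO, 244, 227 and 227 CPM at 6 h, and 142, 142 and 142 CPM at 24 h. In Nrf1-KO cells they were 57.5, 59.5 and 60 CPM in DMSO, 193, 195 and 212 CPM at 6 h, and 109, 110.5 and 107 CPM at 24 h. The treated libraries were above the DMSO libraries at both times, and the Nrf1-KO libraries lay below the WT libraries in each treatment. Nfkb2 rose 2.89-fold in WT and 3.37-fold in Nrf1-KO cells at 6 h, and the response was larger in Nrf1-KO cells by log2 0.22 ± 0.06 (SE; edgeR, adjusted p = 0.0018). At 24 h it stood 1.77-fold and 1.84-fold above DMSO, and the difference in response was not past the threshold (log2 0.06, interval -0.05 to 0.18) and was -0.02 with library size alone.

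Relb lies at chr7:19606217-19629438 on the minus strand. Its levels in WT cells were 10.1, 9.57 and 9.88 CPM in DMSO, 50.7, 47.3 and 48.4 CPM at 6 h, and 15.8, 16.9 and 15.5 CPM at 24 h. In Nrf1-KO cells they were 7.22, 7.96 and 7.71 CPM in DMSO, 44.8, 46.3 and 49.6 CPM at 6 h, and 9.37, 8.27 and 9.96 CPM at 24 h. The lines overlapped at 6 h, while in DMSO and at 24 h each Nrf1-KO library lay below each WT library. Relb rose 4.93-fold in WT and 6.09-fold in Nrf1-KO cells at 6 h. The difference in response at 6 h (log2 0.30; edgeR, adjusted p = 0.02) was lost without replicate 1 of WT DMSO (adjusted p = 0.089), without replicate 2 (0.0638) or 3 (0.0517) of WT at 6 h and without replicate 1 of Nrf1-KO DMSO (0.0521). At 24 h Relb was 1.63-fold above DMSO in WT and 1.2-fold above in Nrf1-KO cells, with a log2 difference in response of -0.44 (edgeR, adjusted p = 0.0025). The 24 h increase in Nrf1-KO cells (edgeR, adjusted p = 0.011) was lost without replicate 1 (adjusted p = 0.0591) or 3 (0.162) of that group. Its log2 value of 0.26 shrank to 0.15 under upper-quartile scaling and 0.08 when scaled by library size. Both scalings also ended the call (edgeR, adjusted p = 0.141 and 0.472).

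The chemokine genes Ccl2 and Ccl7 lie side by side at chr11:82035571-82037453 and chr11:82045712-82047525 on the plus strand. Their products, MCP-1 and MCP-3, attract monocytes. Ccl2 was counted at 2.08, 2.95 and 3.58 CPM in WT DMSO, 168, 161 and 155 CPM at 6 h, and 10.9, 11.1 and 10.9 CPM at 24 h. In Nrf1-KO cells it was counted at 4.27, 4.01 and 3.39 CPM in DMSO, 156, 149 and 160.5 CPM at 6 h, and 52.1, 58.0 and 57.8 CPM at 24 h. The lines overlapped in DMSO and at 6 h, and at 24 h every Nrf1-KO library was above every WT library. Ccl2 rose 57.3-fold at 6 h in WT and 40.6-fold in Nrf1-KO cells. At 24 h it was 3.9-fold above DMSO in WT and 14.7-fold in Nrf1-KO cells, and the response differed by log2 1.92 (interval 1.52 to 2.31; edgeR, adjusted p = 4.3e-10). The smaller 6 h response in Nrf1-KO cells (log2 -0.50; edgeR, adjusted p = 0.02) was lost without replicate 1 of WT DMSO (log2 -0.31, adjusted p = 0.166) and without replicate 1 (adjusted p = 0.0676) or 2 (0.0516) of Nrf1-KO DMSO.

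Ccl7 was counted at 10.1, 12.6 and 11.2 CPM in WT DMSO, 194, 194 and 177 CPM at 6 h, and 15.8, 17.99 and 15.2 CPM at 24 h. The levels in Nrf1-KO cells were 8.54, 9.29 and 10.2 CPM in DMSO, 145, 150.0 and 162 CPM at 6 h, and 61.3, 67.7 and 79.7 CPM at 24 h. At 6 h the Nrf1-KO libraries lay below the WT libraries, and at 24 h they lay well above them. The 6 h rise was 16.7-fold in WT and 16-fold in Nrf1-KO cells, with no difference in response past the threshold (log2 -0.07, interval -0.35 to 0.21). At 24 h Ccl7 was 1.46-fold above DMSO in WT and 7.34-fold in Nrf1-KO cells. This difference in response, log2 2.33 (interval 2.02 to 2.65; edgeR, adjusted p = 3.2e-14), was the largest among the 10 genes at either time.

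Cxcl1 encodes KC, a chemokine that attracts neutrophils, and lies at chr5:90891241-90893115 on the plus strand. It was counted at 2.23, 1.30 and 1.46 CPM in WT DMSO, 24.9, 22.3 and 21.5 CPM at 6 h, and 7.62, 7.86 and 7.004 CPM at 24 h. In Nrf1-KO cells its levels were 4.20, 3.50 and 3.86 CPM in DMSO, 30.9, 31.0 and 32.6 CPM at 6 h, and 5.63, 6.10 and 5.77 CPM at 24 h. The Nrf1-KO libraries were above the WT libraries in DMSO and at 6 h and below them at 24 h. Cxcl1 rose 13.4-fold in WT and 8.14-fold in Nrf1-KO cells at 6 h (difference in response log2 -0.72; edgeR, adjusted p = 0.0027). At 24 h it was 4.38-fold above DMSO in WT and 1.52-fold in Nrf1-KO cells (log2 difference -1.53; edgeR, adjusted p = 1.9e-07). The 3 chemokine genes thus differed between the lines in opposite directions at 24 h: the response of Ccl2 and Ccl7 was larger, and that of Cxcl1 smaller, in Nrf1-KO cells.

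Ptgs2 encodes cyclooxygenase-2, the inducible enzyme of prostaglandin synthesis, and lies at chr1:150100031-150108227 on the plus strand. In WT cells it stood at 24.1, 29.6 and 23.5 CPM in DMSO, 213, 237 and 244 CPM at 6 h, and 332, 329 and 331 CPM at 24 h. In Nrf1-KO cells it stood at 39.2, 40.7 and 38.5 CPM in DMSO, 379, 370.3 and 374 CPM at 6 h, and 757, 756 and 694 CPM at 24 h. The groups did not overlap in either line, and each Nrf1-KO library was above each WT library of the same treatment. Ptgs2 was 9-fold above DMSO at 6 h and 12.8-fold at 24 h in WT cells, and 9.51-fold and 18.7-fold above in Nrf1-KO cells. The response differed between the lines at 24 h (log2 0.54; edgeR, adjusted p = 1.5e-06) and not past the threshold at 6 h (log2 0.08, interval -0.09 to 0.25).

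**Figure D2:**
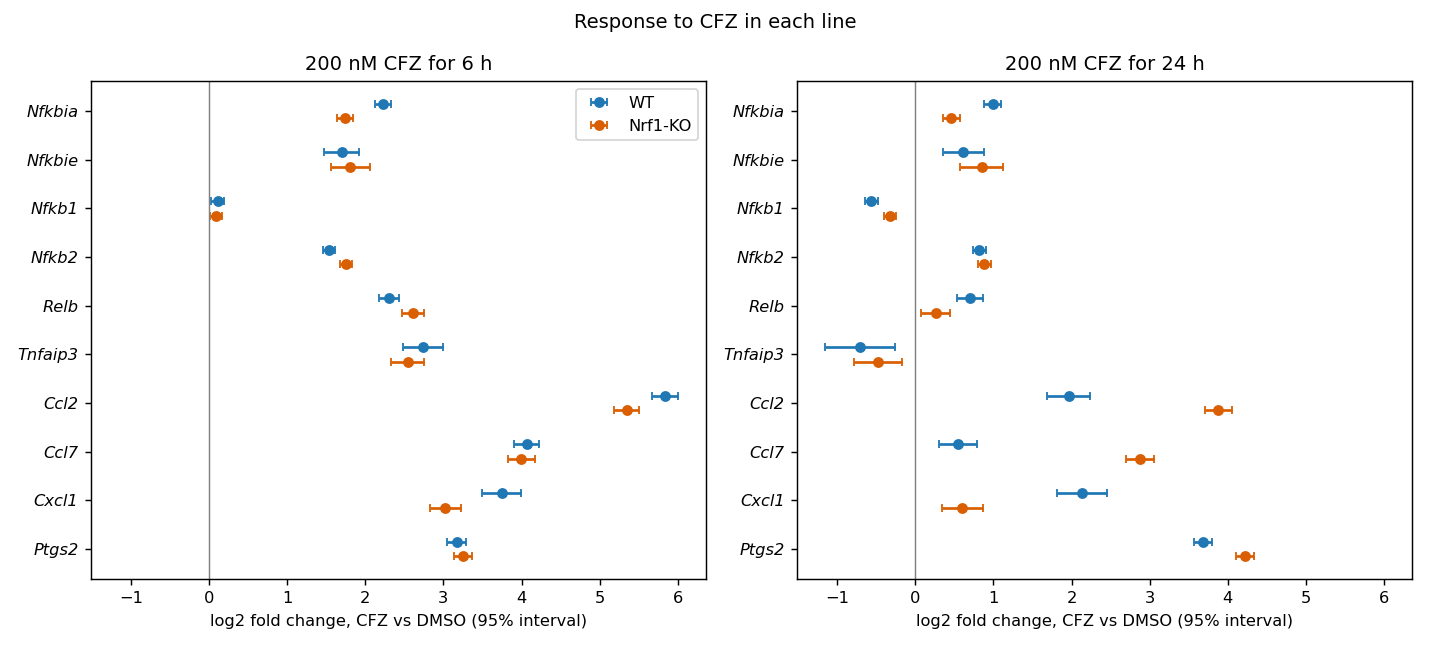
Log2 fold change of each gene (horizontal axis) under 200 nM CFZ against DMSO, at 6 h on the left and 24 h on the right, in WT (blue) and Nrf1-KO (orange) cells. Points are edgeR estimates and bars their 95% intervals. At 6 h Ccl2 lay furthest right in both lines (5.84 and 5.34), and at 24 h Nfkb1 and Tnfaip3 lay left of 0. The small 6 h value of Nfkb1 changes sign with the scaling.

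The time course set Ptgs2 apart from the others. Between 6 h and 24 h, 9 of the 10 genes were lower in WT cells and 9 in Nrf1-KO cells, against 35.4% and 38.3% of all genes. Ptgs2 was the 1 gene that was higher in each line (1.43-fold and 1.96-fold), against 36.9% and 38.7% of all genes. In WT cells Ccl2 was 14.7-fold lower at 24 h than at 6 h, Ccl7 11.5-fold, Tnfaip3 10.9-fold, Cxcl1 3.06-fold and Relb 3.03-fold. In Nrf1-KO cells these values were 2.76-fold for Ccl2, 2.18-fold for Ccl7, 8.1-fold for Tnfaip3, 5.36-fold for Cxcl1 and 5.09-fold for Relb. The 4 remaining genes were lower by 1.33-fold to 2.43-fold across both lines.

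Set against DMSO, 8 of the 10 genes were still higher at 24 h in WT cells (43.2% of all genes were), and 2, Nfkb1 and Tnfaip3, were lower (40.5%). In Nrf1-KO cells 8 were higher (44.4% of all genes) and the same 2 were lower (41.1%). A 2-fold rise was kept by 3 genes in each line, Ccl2, Cxcl1 and Ptgs2 in WT cells and Ccl2, Ccl7 and Ptgs2 in Nrf1-KO cells, against 10.5% and 11.5% of all genes. The 6 h and 24 h comparisons share the DMSO libraries of their line. Per kilobase of the longest coding transcript, Nfkb1 had the highest mean level of the 10 genes in DMSO (23.5 CPM per kb in WT and 22.3 in Nrf1-KO cells). At 6 h Ccl7 (235) and Ccl2 (198) led in WT cells and Ccl2 (191) and Ccl7 (190) in Nrf1-KO cells, and at 24 h Ptgs2 led in both (74.3 and 165). Tnfaip3 was lowest of the 10 in 5 of the 6 groups (0.352 to 3.89 CPM per kb), and in Nrf1-KO cells at 6 h Nfkbie was lowest (4.42, against 6 for Tnfaip3).

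The test of the difference in response between the lines, the interaction of genotype and CFZ, called 5 of the 10 genes at 6 h and 7 at 24 h. At 6 h 2 responses were larger in Nrf1-KO cells (Nfkb2 and Relb), against 19.8% of all genes, and 3 were smaller (Nfkbia, Ccl2 and Cxcl1), against 18.4%. At 24 h 4 were larger (Nfkb1, Ccl2, Ccl7 and Ptgs2; 29.7% of all genes) and 3 were smaller (Nfkbia, Relb and Cxcl1; 30%). Only Ccl2, Ccl7 and Cxcl1 passed 2-fold in this test, all at 24 h, where 4.07% of all genes had a response larger by 2-fold and 4.53% a response smaller by 2-fold. Nfkbia and Cxcl1 had smaller responses in Nrf1-KO cells at both times. Relb and Ccl2 differed in opposite directions at 6 h and 24 h, but their 6 h calls were lost when single libraries were left out, as given above. The 2 tests share the DMSO libraries of both lines.

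**Figure D3:**
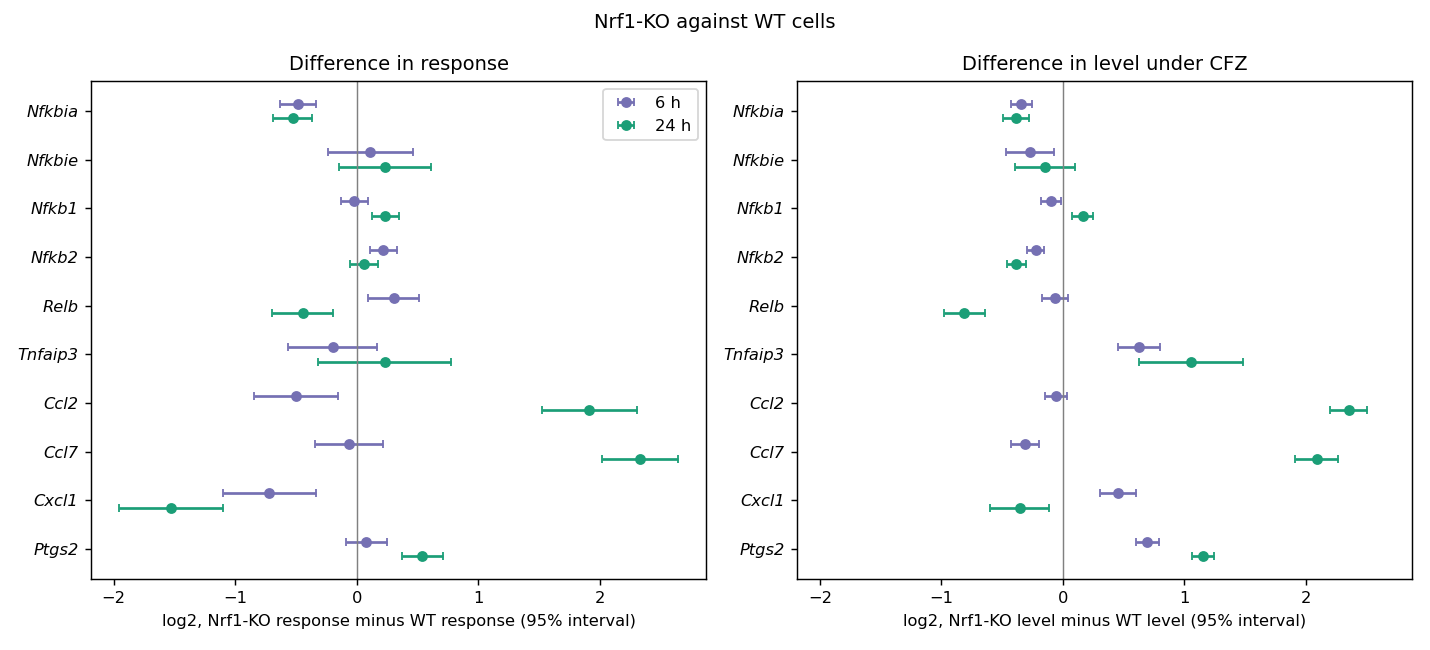
Difference between Nrf1-KO and WT cells for each gene on the log2 scale, as the difference in response to CFZ (left) and the difference in level under CFZ (right), at 6 h (purple) and 24 h (green). Points are edgeR estimates and bars 95% intervals. At 24 h Ccl2 and Ccl7 lay near 2 in both panels (1.92 and 2.33 on the left, 2.35 and 2.09 on the right), while Cxcl1 lay at -1.53 on the left and -0.35 on the right. The signs of Nfkb1 at 6 h and Nfkb2 at 24 h (left), and of Relb and Ccl2 at 6 h (right), change with the scaling.

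The lines also differed before treatment. In DMSO, 5 of the 10 genes were higher in Nrf1-KO cells (25.7% of all genes) and 3 were lower (29.1%). Cxcl1 was 2.26-fold higher (edgeR, adjusted p = 7.3e-07), Tnfaip3 1.77-fold and Ptgs2 1.53-fold, with no overlap between the lines. Nfkb2 was 1.36-fold lower (edgeR, adjusted p = 1.5e-10) and Relb 1.29-fold. The calls of Ccl2 (1.35-fold higher, with overlapping libraries), Nfkbia (1.1-fold higher) and Nfkbie (1.31-fold lower) were lost when single libraries were left out. For Ccl2 the log2 difference of 0.44 became 0.24 without replicate 1 of WT DMSO (adjusted p = 0.237), and lost its call without replicate 1 (adjusted p = 0.0837) or 2 (0.061) of Nrf1-KO DMSO. For Nfkbia the call was lost without replicate 1, 2 or 3 of WT DMSO or replicate 1 of Nrf1-KO DMSO (adjusted p from 0.0593 to 0.103), and its log2 difference of 0.14 became 0.09 without replicate 3 of Nrf1-KO DMSO (adjusted p = 0.342). For Nfkbie it was lost without replicate 1 (0.0615) or 2 (0.0501) of WT DMSO or replicate 3 (0.0598) of Nrf1-KO DMSO.

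Under CFZ at 6 h, 3 genes were higher in Nrf1-KO cells (30.5% of all genes) and 5 were lower (30.8%). Ptgs2 was 1.62-fold, Tnfaip3 1.55-fold and Cxcl1 1.37-fold higher, and Nfkbia (1.27-fold), Ccl7 (1.24-fold) and Nfkb2 (1.17-fold) were lower. Nfkbie (1.21-fold lower) and Nfkb1 (1.07-fold lower) completed the 5. The Nfkbie call was lost without replicate 2 of WT (log2 -0.22, adjusted p = 0.0865) or replicate 1 of Nrf1-KO (-0.18, 0.156) at 6 h. The Nfkb1 call was lost without replicate 1 or 2 of WT or replicate 1, 2 or 3 of Nrf1-KO at 6 h (adjusted p from 0.0562 to 0.126). At 24 h, 5 genes were higher in Nrf1-KO cells (35.6% of all genes) and 4 were lower (36.4%). Ccl2 was 5.11-fold higher (edgeR, adjusted p = 6.4e-23), Ccl7 4.25-fold (5.9e-20), Ptgs2 2.23-fold, Tnfaip3 2.08-fold and Nfkb1 1.12-fold. Relb was 1.76-fold lower, Nfkbia 1.31-fold, Nfkb2 1.3-fold and Cxcl1 1.28-fold, the last not past the threshold without replicate 2 of WT at 24 h (adjusted p = 0.0504).

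Markers of leukocytes were examined because these cells also make several of the 10 genes' products. Over the 8 markers, the summed level was 19.2 to 20.1 CPM in WT DMSO, 15.3 to 17 CPM at 6 h and 43.4 to 47.2 CPM at 24 h. In Nrf1-KO cells it was 26.4 to 27.6, 23.7 to 24.9 and 63.6 to 64.3 CPM. Cd14, a co-receptor for lipopolysaccharide, rose from 7.82 to 29.3 CPM in WT and from 10.2 to 53.1 CPM in Nrf1-KO cells at 24 h. Cd68 rose from 0.70 to 3.21 and from 0.78 to 4.48 CPM, and Csf1r from 0.11 to 6.44 and from 0.07 to 0.78 CPM (0 to 4 counts per DMSO library), while Lyz2 fell from 11.1 to 6.22 and from 14.9 to 4.26 CPM. The defining leukocyte gene Ptprc (CD45) had no count in any WT library and 6 to 26 counts per Nrf1-KO library, and Adgre1, Itgam and Laptm5 had 0 to 3 counts per library. Single markers of other cell types moved as well. The endothelial gene Cdh5 was 12.7-fold higher at 24 h in WT and 18.6-fold higher in Nrf1-KO cells. The epithelial gene Cdh1 was 11.7-fold and 29.3-fold lower. The other endothelial and epithelial markers listed had too few counts to be tested. The part of other cells in these results was not tested.

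The wider pathway was described with a list of 76 further genes, of which 64 passed the filter on low counts. This list, too, was chosen with earlier results of these data known, so its shares are no independent result. At 6 h 45 of the 64 were higher and 9 lower than in DMSO in WT cells (35.6% and 36.2% of all genes were), with a median log2 change of 0.54 (0.54 also with genes that had no count in a group set at their bound), against -0.02 over all genes. In Nrf1-KO cells 39 were higher and 12 lower (34.5% and 35% of all genes), with a median of 0.28 (0.26 with such bounds). At 24 h 43 were higher and 8 lower in WT cells (43.2% and 40.5% of all genes; median 0.52, or 0.51 with bounds). In Nrf1-KO cells 39 were then higher and 16 lower (44.4% and 41.1% of all genes; median 0.33). Of the calls, the share in the higher direction was 84.3% in WT cells at 24 h and 74% with upper-quartile scaling, where that of all called genes went from 51.6% to 43.3%. It was 76.5% in Nrf1-KO cells at 6 h and 66% with library size alone, where that of all called genes went from 49.7% to 36.4%. The difference in response between the lines was called for 12 larger and 20 smaller at 6 h (19.8% and 18.4% of all genes; median -0.05) and 12 larger and 29 smaller at 24 h (29.7% and 30% of all genes; median -0.09).

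The other subunits had smaller 6 h changes than Relb and Nfkb2 in each line, a difference that was not tested. Rela, the activating subunit of the classical pathway, rose from 78.6 ± 0.92 (SD, n = 3) to 126 ± 3.54 CPM at 6 h and 116 ± 4.84 CPM at 24 h in WT cells, and from 62.7 ± 2.02 to 116 ± 0.52 and 114 ± 6.65 CPM in Nrf1-KO cells. Rel, which encodes c-Rel, rose from 5.61 to 12.9 CPM at 6 h in WT and from 3.82 to 12.2 CPM in Nrf1-KO cells, and was near its DMSO level at 24 h (6.997 and 4.85 CPM), still past the threshold (log2 0.32 and 0.33). Nfkbib, which encodes IkB-beta, followed another course than Nfkbia: it rose from 13.9 ± 0.35 CPM to 21.5 ± 2.36 CPM at 6 h and 52.9 ± 2.54 CPM at 24 h in WT cells, and from 13.6 ± 0.32 to 19.3 ± 1.2 and 48.2 ± 1.42 CPM in Nrf1-KO cells. Genes on the opposite strand overlap 16.4% of the exonic bases of Nfkbib, so its count could include their reads where strand was not used. Of the other IkB family members, Nfkbiz, an atypical nuclear member, rose at 24 h (log2 0.50 in WT and 0.999 in Nrf1-KO cells), with a larger response in Nrf1-KO cells (log2 0.50; edgeR, adjusted p = 0.0025).

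In WT cells CFZ raised 9 of the 10 kinase genes by 6 h and 8 by 24 h (35.6% and 43.2% of all genes), and in Nrf1-KO cells 6 and 9 (34.5% and 44.4%). The IkB kinase subunits rose in both lines at 24 h: Ikbkb by log2 0.87 in WT and 0.83 in Nrf1-KO cells, Chuk by 0.53 and 0.44, and the regulatory subunit Ikbkg by 0.81 and 0.55. At 6 h Ikbkg rose in WT cells (28.1 to 42.0 CPM) and had a log2 change of 0.01 in Nrf1-KO cells (28.4 to 28.7 CPM), and its responses differed at both times (log2 -0.58, edgeR adjusted p = 4.8e-07, and -0.25, 0.0032). Tab1, a partner of the upstream kinase TAK1, fell in both lines at both times (log2 -0.50 and -1.02 in WT, -0.40 and -0.66 in Nrf1-KO cells). Tab2, another partner of TAK1, had a larger response in Nrf1-KO cells, by log2 0.65 at 24 h (edgeR, adjusted p = 1.1e-13).

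Of the 8 receptor genes, 3 were higher and 4 lower at 6 h in WT cells, and 3 were higher and 3 lower in Nrf1-KO cells, shares near those of all genes (35.6% and 36.2%, and 34.5% and 35%). Il1r1, the interleukin-1 receptor, fell at 24 h in both lines (log2 -0.84 and -0.73). Tnfrsf1b, a TNF receptor, fell at 6 h in both (log2 -0.62 and -0.34). Tlr3, a receptor for double-stranded RNA, had a larger response in Nrf1-KO cells at 6 h (log2 0.48; edgeR, adjusted p = 0.00017). Among the 12 adaptors tested, Traf3, which restrains the alternative pathway, rose from 35.8 ± 0.97 to 132.5 ± 2.27 CPM at 6 h and 127 ± 2.46 CPM at 24 h in WT cells, and from 44.2 ± 1.36 to 76.4 ± 1.74 and 60.7 ± 4.8 CPM in Nrf1-KO cells. Its response was smaller in Nrf1-KO cells by log2 -1.10 at 6 h (edgeR, adjusted p = 1.2e-14) and -1.37 at 24 h (edgeR, adjusted p = 1.5e-17). Birc2, which encodes the ubiquitin ligase cIAP1, fell at 24 h in both lines (log2 -0.93 and -0.62), and Irak1, a kinase of the interleukin-1 pathway, fell at 24 h (log2 -0.36 and -0.84). Of the 8 brakes, genes whose products dampen the pathway, 6 rose at 6 h in WT and 7 in Nrf1-KO cells (35.6% and 34.5% of all genes), and Tnip2, a partner of A20, had a larger 6 h response in Nrf1-KO cells (log2 0.52; edgeR, adjusted p = 0.00019).

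**Figure D4:**
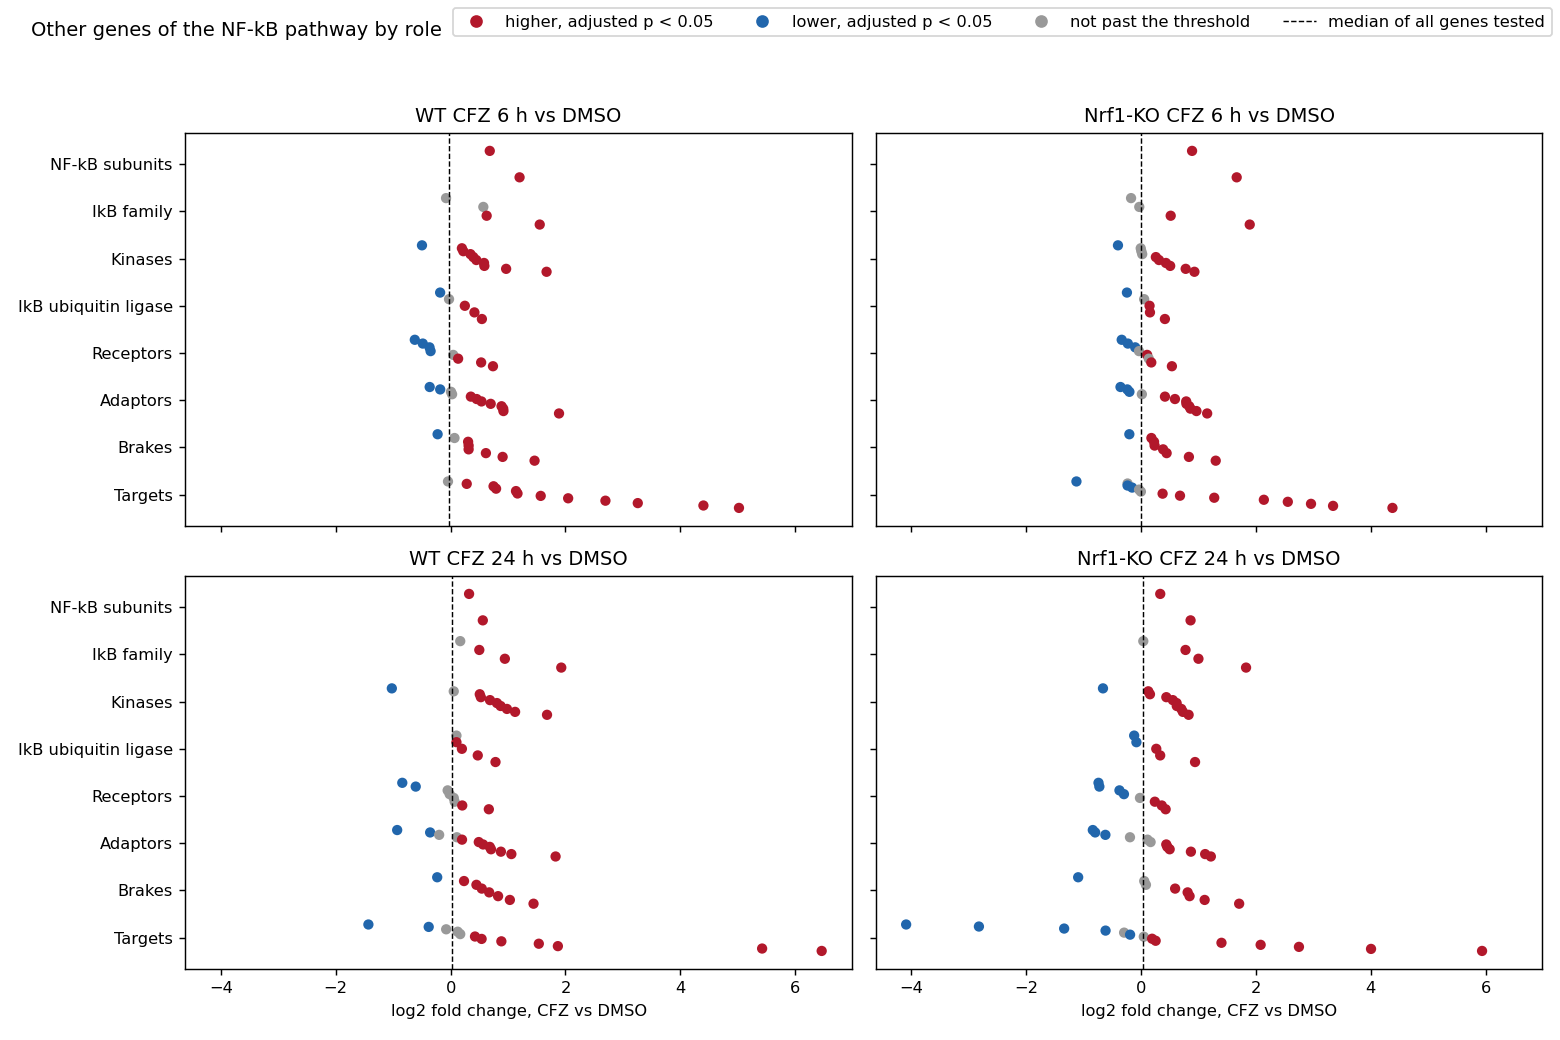
Log2 fold change under CFZ against DMSO (horizontal axis) of the other pathway genes that passed the filter, in rows by role, with 1 panel for each line and time. Each point is 1 gene, red where higher and blue where lower at an adjusted p under 0.05, and the dashed line is the median of all genes tested. Genes with no count in a compared group are left out. Most points of the kinases, adaptors and brakes lay right of the dashed line, and the targets spread furthest.

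Of 26 further target genes 15 could be tested, and at 6 h 12 of these were higher in WT cells (35.6% of all genes), and 8 were higher and 3 lower in Nrf1-KO cells (34.5% and 35% of all genes). Those left out for low counts include Il6, Tnf, Il1a, Il1b, Cxcl2, Nos2 and Csf2, so transcripts of several classical inflammatory cytokines were not detectable at this depth in amounts that allow a test. Ier3, an early survival gene, followed the course of Ptgs2, rising from 8.38 ± 0.5 to 80.5 ± 2.06 and 361 ± 6.8 CPM in WT and from 14.8 ± 0.57 to 114.5 ± 1.01 and 903 ± 11.9 CPM in Nrf1-KO cells. Cxcl10, a chemokine for T cells, peaked at 6 h (log2 4.40 and 3.34). Its WT changes rest on a DMSO mean of 0.15 CPM (1 to 5 counts per library). It reached 3.44 CPM at 6 h in WT cells, and went from 1.17 to 11.5 CPM in Nrf1-KO cells. At 24 h its log2 change against DMSO was 1.87 in WT and -0.30 in Nrf1-KO cells (edgeR, adjusted p = 0.00079 and 0.32).

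Of the target genes, Mmp9 and Ccl5 rose more in WT cells by 24 h. Mmp9, a matrix metalloproteinase, rose from 0.14 ± 0.09 to 4.66 ± 0.21 and 12.5 ± 1.54 CPM in WT cells and from 0.18 ± 0.07 to 0.80 ± 0.17 and 0.77 ± 0.29 CPM in Nrf1-KO cells (log2 difference in response -2.88, edgeR adjusted p = 0.0033, and -4.38, 1.8e-05). Ccl5, a chemokine for T cells and monocytes, had no count in WT DMSO and 5.94 ± 0.17 CPM at 24 h, at least 102-fold higher when the DMSO group is set at a floor of 3 counts, and 0.69 ± 0.26 CPM in Nrf1-KO cells at 24 h. Cxcl5, a neutrophil chemokine, rose in WT cells at 6 h (log2 1.14) and fell in Nrf1-KO cells at 24 h (log2 -2.82). Icam1, an adhesion molecule, had no count in DMSO in either line and was at least 8.9-fold higher at 24 h in WT and at least 19.8-fold higher in Nrf1-KO cells. Vcam1, another adhesion molecule, fell at 24 h in both (log2 -1.43 and -1.34). C3, a complement component, rose at 6 h in both lines (log2 2.70 and 4.38) from means of 0.11 and 0.13 CPM in DMSO. Il33 had no count in WT DMSO or at 6 h, and was at least 20.6-fold higher in Nrf1-KO DMSO (1.20 ± 0.12 CPM). In Nrf1-KO cells Il33, an alarm cytokine, was at 0.51 ± 0.49 CPM at 6 h and 0.06 ± 0.01 CPM at 24 h, and both values were past the threshold against DMSO.

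Over the 18 libraries, the genes whose log2 levels ran most like those of 4 of the 10 genes were named by Pearson's r. For Nfkbia these were Ptges3 (0.991), Rab33b (0.984) and Fosl2 (0.976). For Ccl2 they were Bcat1 (0.987), its neighbour Ccl7 (0.984) and Wdr43 (0.980). For Cxcl1 they were Azin1 (0.969), Med7 (0.965) and Myc (0.962), and for Ptgs2 Mdm2 (0.993), Yrdc (0.991) and Mak16 (0.990). These values describe 18 points that fall into 6 groups and share library scaling, so they rest largely on differences between the groups.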

How the data were processed

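Stranded mRNA libraries were prepared and sequenced as paired reads of 125 bases, and the authors deposited 1 table of raw counts, whole reads per gene symbol, for 18 libraries. The submitters' processing notes name STAR and DESeq2, with no versions. Genome build, annotation and use of strand in counting are not given in the sources used here, so reads where genes overlap may be shared. Of 23420 rows, 6577 had no count and 27 symbols had become dates, none of the 10 genes among them. Columns were matched to samples by their labels.

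Counts were tested with edgeR 4.0.16 in R 4.3.3: genes were kept by filterByExpr (minimum count 10, total 15), TMM-scaled and fitted in 1 quasi-likelihood model of 6 groups over 18 libraries. P-values of 11 contrasts were adjusted over 11762 genes (Benjamini-Hochberg, threshold 0.05), and SE and 95% intervals came from the same fit. A p-value here sets a difference between groups against the spread among the libraries within groups. It does not cover the spread between independent lines. The script was tested on simulated counts. Results were recomputed with DESeq2 1.42.0, with other scalings (upper-quartile, library size alone) and filters (none, a mean count of at least 10), with the compared groups only, a replicate block, a minimum fold of 2, and leaving out each library.

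The 10 genes and all lists were chosen with earlier results of these data known. Of the wider list, Rela, Rel, Nfkbib, Ikbkb, Chuk, Ikbkg and the 3 genes with the highest and the 3 with the lowest log2 change among those past the threshold in each CFZ comparison and each interaction were named. Map positions came from GENCODE M21 and promoters from RefSeq (both GRCm38) by symbol. Similar genes of Nfkbia, Ccl2, Cxcl1 and Ptgs2 were the 3 with the highest Pearson's r on log2 CPM. For a group without counts, a floor of 3 counts over the group was used. No 2 replicates agreed within sampling noise (chi-square per degree of freedom 1.44 to 8.47).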

Additional observations from a re-analysis of the deposited data

Results flagged for a closer look

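The response to CFZ differed between the lines, by the interaction test, in 12 instances among the 10 genes (edgeR's quasi-likelihood test, adjusted p under 0.05 over all genes; log2 of the Nrf1-KO response minus the WT response). At 6 h these were Nfkbia (-0.48), Nfkb2 (0.22), Relb (0.30), Ccl2 (-0.50) and Cxcl1 (-0.72). At 24 h they were Nfkbia (-0.53), Nfkb1 (0.24), Relb (-0.44), Ccl2 (1.92), Ccl7 (2.33), Cxcl1 (-1.53) and Ptgs2 (0.54). Of all genes tested, 19.8% had a larger and 18.4% a smaller response in Nrf1-KO cells at 6 h. At 24 h these shares were 29.7% and 30%. The 6 h calls of Relb and Ccl2 were lost when single libraries were left out, as given above.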

How the results depend on the processing

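All of the 110 log2 changes kept their direction and call with the replicate block and with a mean count of at least 10. Of the 34 counts, those of the 10 genes therefore did not change, and those of the pathway list changed little or not at all. Libraries that carry the same number showed little shared deviation (correlations averaged 0.0136, from -0.0494 to 0.0972, over 45 pairs). Of 18 libraries, 9 ran best with their own number. With 3 libraries per group, these values cannot show whether the numbers mark pairs or batches. The block called 10 of the 10 genes higher in WT at 6 h, as without it. Against TMM, upper-quartile scaling and library size alone moved the median log2 change of all genes by -0.109 and -0.132 (WT, 6 h), -0.135 and -0.103 (WT, 24 h), -0.074 and -0.112 (Nrf1-KO, 6 h) and -0.108 and -0.182 (Nrf1-KO, 24 h). These scalings turned Nfkb1 at 6 h in WT to -0.002 and -0.025. Both also ended the calls of Relb in Nrf1-KO at 24 h (edgeR, adjusted p = 0.141 and 0.472) and of Nfkb1 between the lines at 6 h (0.311 and 0.561). With library size alone the call of Nfkbie between the lines at 6 h was lost as well (0.0695). Upper-quartile scaling turned the 6 h difference in response of Nfkb1 to 0.014 and raised the pathway genes lower in WT at 24 h to 13. Library size alone turned Nfkb1 in Nrf1-KO at 6 h to -0.027, the 24 h difference in response of Nfkb2 to -0.017, and the 6 h difference between the lines of Relb to 0.002 and of Ccl2 to 0.008. With DESeq2 and with library size alone, 3 of the 10 genes were lower in Nrf1-KO at 6 h. DESeq2 also ended the calls of Nfkb1 in WT at 6 h, of Nfkbia and Nfkbie in Nrf1-KO DMSO against WT, and of Nfkbie and Nfkb1 between the lines at 6 h (adjusted p from 0.055 to 0.136), and without a filter the calls of Nfkb1 in WT at 6 h, Nfkbia between the lines in DMSO, and Relb in Nrf1-KO at 24 h and in the 6 h difference in response were lost (0.0515 to 0.127). With no filter, 1 had a larger 6 h response in Nrf1-KO cells, and the call of Ccl7 between the lines in DMSO was gained (0.0268). With the compared groups only, Relb in Nrf1-KO at 24 h lost its call (0.0512) and Nfkb1 in Nrf1-KO at 6 h gained one (0.0499).

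A minimum fold of 2 left, of the 10 genes against DMSO at 24 h, 3 higher and 0 lower in each line, and 0 higher at 24 h than at 6 h. Of the pathway list it left 14 higher and 0 lower (WT, 6 h), 13 and 2 (WT, 24 h), 10 and 1 (Nrf1-KO, 6 h) and 11 and 4 (Nrf1-KO, 24 h). Of all genes, the shares higher by at least 2-fold were 3.98%, 10.5%, 3.3% and 11.5% in the same order. For the difference in response it left 0 and 0 of the 10 genes at 6 h and 2 larger and 1 smaller at 24 h, and of the pathway list 0 and 3 at 6 h and 0 and 6 at 24 h. Of all genes, 4.07% had a response larger and 4.53% a response smaller by at least 2-fold at 24 h. Between the lines it left 1 higher and 0 lower in DMSO, 0 and 0 at 6 h, and 0 lower at 24 h. For the remaining counts of this paragraph the share of all genes is not given, so they are no result about these genes.

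Leaving out single libraries gave 1 to 2 of the 10 genes with a larger 6 h response in Nrf1-KO cells, 3 to 5 higher in Nrf1-KO DMSO, 3 to 5 lower in Nrf1-KO at 6 h and 1 to 2 lower in Nrf1-KO at 24 h of CFZ than in DMSO. The pathway genes with a larger 6 h response numbered 7 (without WT 6 h replicate 2) to 13. The 6 h difference in response changed sign for Ptgs2 (-0.032 without WT DMSO replicate 2, -0.004 without WT 6 h replicate 1, highest 0.137), Ccl7 (0.023 without Nrf1-KO DMSO replicate 3, lowest -0.154) and Nfkbie (-3e-04 without Nrf1-KO 6 h replicate 2, highest 0.202), none of which was called. The cause was not tested. Depth limits Tnfaip3 and Cxcl1 most, with as few as 14 and 22 reads.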
